A study of Danio rerio with 9 samples.

Results

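Cadherin, catenin, desmosome, nectin and afadin genes were examined in 3 dissected tissues of zebrafish larvae: proepicardium, heart tube and dorsal pericardium. The genes were chosen by symbol: names beginning with cdh and a digit, dsc, dsg, pkp, ctnn, jup, afdn, nectin or perp, together with desmoplakin, without the endothelial cadherin cdh5, and with a total of at least 10 counts over all libraries. This gave 50 of 32520 gene rows, of which 23 were cadherins, 11 catenins, 11 desmosome genes and 5 nectin or afadin genes. A further 5 rows with matching symbols had totals of 1 to 6 counts and were left out: CDH22, CDH24, cdh7b, a second row listed as JUP and a second row listed as NECTIN1.

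RNA was measured by sequencing of amplified cDNA in 4 proepicardium, 3 heart tube and 2 pericardium libraries, each from a pool of at least 10 hand-dissected organs. All larvae were of strain AB at 60 hours post fertilisation (hpf) and carried the transgenes epi:eGFP and myl7:mRFP (myl7 is a heart muscle promoter), so that the groups differ, per the labels, in the tissue dissected. The design text of the series gives 3 proepicardium samples, whereas the sample labels list 4, and all 4 were used. Each library is a separate pool, and nothing in the labels says that pools of different tissues came from the same larvae. The p-values therefore measure the spread between these pools.

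Adherens junctions and desmosomes hold neighbouring cells together. In an adherens junction, classical cadherins bind each other across the gap between cells, and inside the cell p120-catenin, beta-catenin and alpha-catenin tie them to actin, while nectins form a parallel set of contacts through afadin. In a desmosome, the desmogleins and desmocollins are cadherins too, and plakoglobin, plakophilins and desmoplakin tie them to intermediate filaments, keratins in epithelia and desmin in heart muscle. E-cadherin (cdh1) is the classical cadherin of epithelia and N-cadherin (CDH2) that of heart muscle and many mesenchymal cells. The proepicardium is a cluster of mesothelial cells near the inflow of the heart, from which cells move onto the heart tube to form the epicardium. Symbols are written here as the gene name table lists them, so that some zebrafish genes carry a human-style symbol without the letter that tells paralogs apart.

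The libraries held 8882853 to 19397355 counts in genes. MYL7, a myosin light chain of heart muscle, stood at 42.5 to 163 CPM in proepicardium pools, 19872 to 27993 CPM in heart tube pools and 6.35 to 19.8 CPM in pericardium pools. Counts of a red fluorescent reporter row (mCherry) were 3059 to 4042 in heart tube pools and 0 or 1 in all other libraries. CPM is a gene's count relative to the size of its library after TMM adjustment. Markers of another tissue were also present. A list of epidermal genes (13 of 14 symbols matched, keratins, claudins, epcam, TP63 and others) took 1.35 to 5.45% of the counts in proepicardium pools, 0.022 to 0.647% in heart tube pools and 6.2 to 7.53% in pericardium pools, and no gene of it was at 0 in any library. Of these 13 genes, 10 were higher in proepicardium than in heart tube and 11 were lower in heart tube than in pericardium. Over all genes tested, 16.8% and 16.1% were so. Among proepicardium libraries, replicate 3 had the lowest epidermal share (1.35%), and among heart tube libraries, replicate 1 had the highest (0.647%, against 0.022% and 0.0238% in the other heart tube libraries). Several of the junction genes below are ones that epidermis is known to use, so the epidermal values are given beside them. In bulk tissue, fewer cells of a type and less RNA per cell cannot be told apart.

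**Figure D1:**
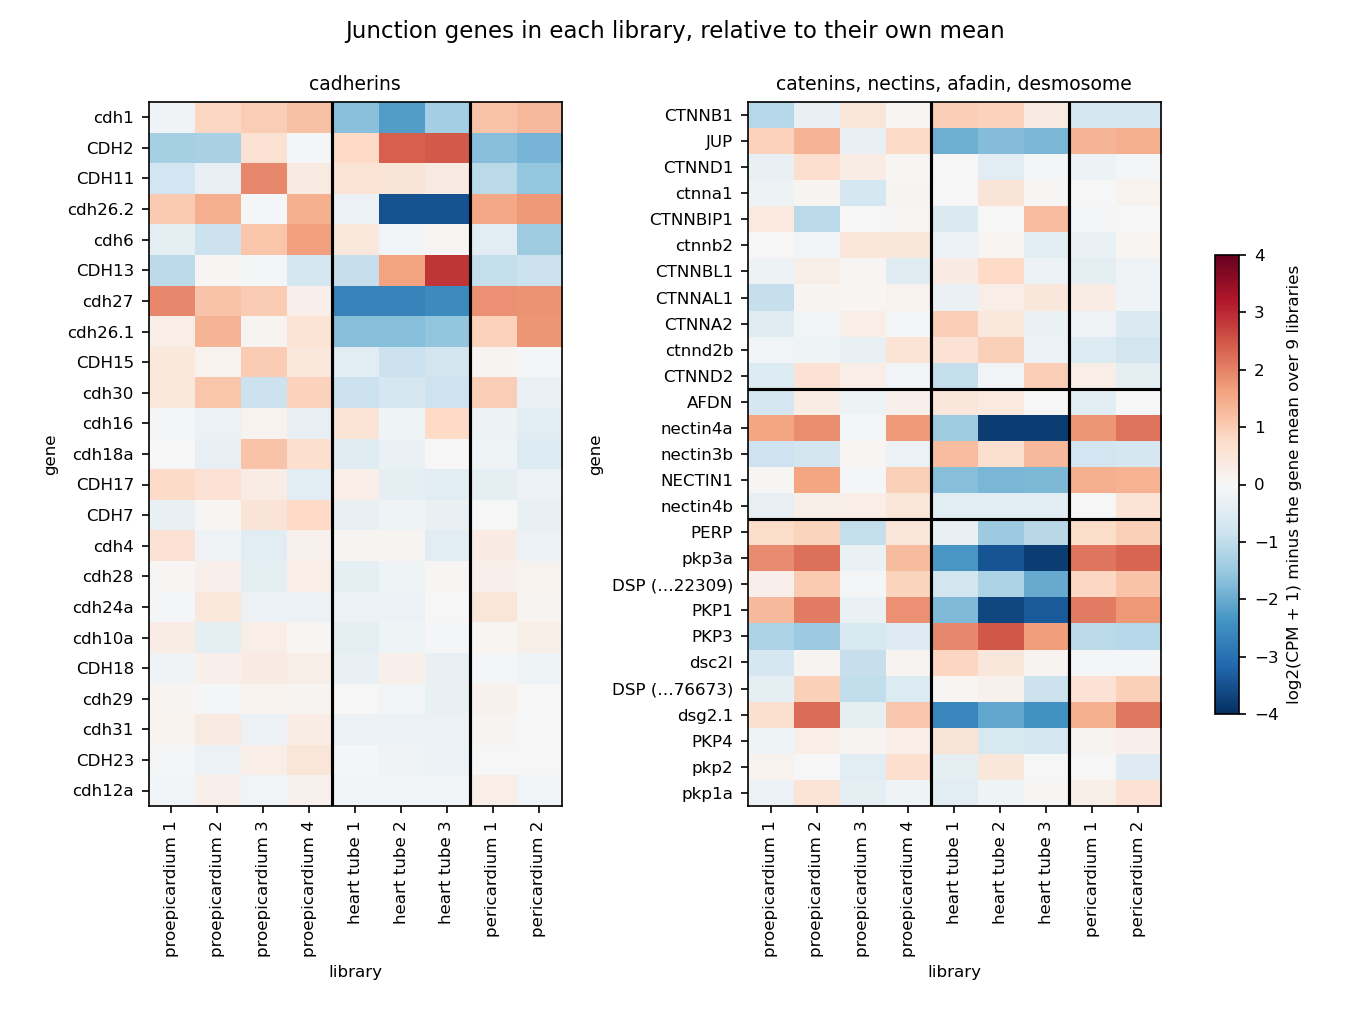
Heat map of the 50 genes (rows) in the 9 libraries (columns), coloured by log2(CPM + 1) minus the mean of that gene over all libraries. Black lines part the tissues and the gene classes. A block of genes that includes cdh1, cdh27, JUP, dsg2.1, PKP1 and pkp3a is blue in all heart tube libraries and red in all pericardium libraries. Most proepicardium libraries are red for these genes, but cdh1, JUP, dsg2.1, PKP1 and pkp3a each have a blue proepicardium library. CDH2, PKP3 and nectin3b are red in all heart tube libraries and blue in all pericardium libraries. Most proepicardium libraries are blue for them, but CDH2 and nectin3b each have a proepicardium library above the mean.

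Of the 50 genes, 42 had enough counts to be tested among 17003 genes. The other 8, all cadherins (cdh10a, cdh12a, CDH18, CDH23, cdh24a, cdh28, cdh29 and cdh31), had totals of 11 to 40 counts and at most 0.663 CPM in any library. A gene was called where its adjusted p from edgeR's quasi-likelihood test, corrected over all 17003 genes, was under 0.05. Between the proepicardium and the heart tube, 18 of 42 genes passed: 14 were higher in proepicardium and 4 were lower. Over all genes tested 29.4% were called, 16.8% higher and 12.7% lower. At an unadjusted p under 0.05 there were 22 of the 42 and 40.2% of all genes. In 13 genes every proepicardium library was above every heart tube library (19.8% of all genes) and in 4 every one was below (16% of all genes). Between the heart tube and the pericardium 18 of 42 were called too, 5 higher and 13 lower in the heart tube, where 27.1% of all genes were called, 11% higher and 16.1% lower. At an unadjusted p under 0.05 there were 21 of the 42 and 38% of all genes. In 9 genes every heart tube library was above every pericardium library (25.2% of all genes) and in 17 every one was below (32.9% of all genes). These comparisons share the heart tube libraries and are not independent of each other. The shares over all genes are also the ones to set beside the counts per class and per list. Between the proepicardium and the pericardium none of the 42 was called, and none of the 17003 genes (0%). An unadjusted p under 0.05 was found for 4 of the 42 genes and 4.91% of all genes. In 4 genes every proepicardium library was above every pericardium library (7.65% of all genes) and in 2 every one was below (7.75% of all genes). The proepicardium libraries were not uniform. Over all tested genes, log2 CPM of proepicardium 1 correlated at 0.957 and 0.939 with pericardium 1 and 2, but at 0.892 and 0.896 with proepicardium 3 and 4. For proepicardium 2 the values were 0.943 and 0.943, against 0.862 and 0.892. Proepicardium 3 and 4 correlated at 0.912 with each other. The absence of calls therefore does not show that the tissues are alike.

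In the comparison of the proepicardium with the heart tube, 12 of the 18 calls held in every alternative that was run and that tested the gene. In the comparison of the heart tube with the pericardium, 11 of 18 did. That comparison rests on 2 pericardium libraries: without pericardium 1 or without pericardium 2 the number called was 11 in each case, with the remaining pericardium library assumed to vary like the others.

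E-cadherin and N-cadherin had opposite patterns. The level of cdh1 was 176, 347, 388 and 434 CPM in the proepicardium libraries, 60.7, 40.1 and 74.4 CPM in the heart tube libraries and 429 and 480 CPM in the pericardium libraries. All heart tube libraries lay below all others. The log2 fold change was 2.53 ± 0.38 (SE) in the proepicardium over the heart tube (adjusted p = 0.000598), a 5.76-fold higher level, and cdh1 fell by 2.96 ± 0.42 in the heart tube relative to the pericardium (adjusted p = 0.00052). CDH2 stood at 17.1, 17.4, 68.3 and 43 CPM in proepicardium pools, 79.3, 238 and 251 CPM in heart tube pools and 13 and 11.7 CPM in pericardium pools. The 3 tissues did not overlap: each heart tube library was above each proepicardium library, and each proepicardium library above each pericardium library. CDH2 was lower in proepicardium than in heart tube (log2 fold change -2.38 ± 0.54, adjusted p = 0.00698) and higher in heart tube than in pericardium (3.94 ± 0.76, adjusted p = 0.00325). Between the proepicardium and the pericardium its difference was 1.56 ± 0.65 with a 95% interval of 0.13 to 2.99, and it did not pass the correction (unadjusted p = 0.0353, adjusted p = 0.971).

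The balance of cdh1 and CDH2 within a library needs no scaling between libraries. There were 10.3, 19.9, 5.68 and 10.1 cdh1 counts per CDH2 count in proepicardium pools, 0.765, 0.168 and 0.296 in heart tube pools and 33.1 and 40.9 in pericardium pools. Every proepicardium library thus lay between the heart tube and the pericardium. On the log2 scale, with 0.5 added to each count, the balance was 3.38 ± 0.74 in proepicardium pools (SD, n = 4), -1.57 ± 1.1 in heart tube pools (SD, n = 3) and 5.20 ± 0.22 in pericardium pools (SD, n = 2). The proepicardium differed from the heart tube by 4.95 (two-sided exact permutation p = 0.0571), from the pericardium by -1.82 (exact p = 0.133), and the heart tube differed from the pericardium by -6.77 (exact p = 0.2). The two-sided p used here doubles the smaller one-sided p. Each value is the smallest p that this form of the test can give with so few libraries, so none could pass 0.05. Transcript lengths were not used here, so the ratios compare libraries and do not say which of the 2 cadherins had more molecules.

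**Figure D2:**
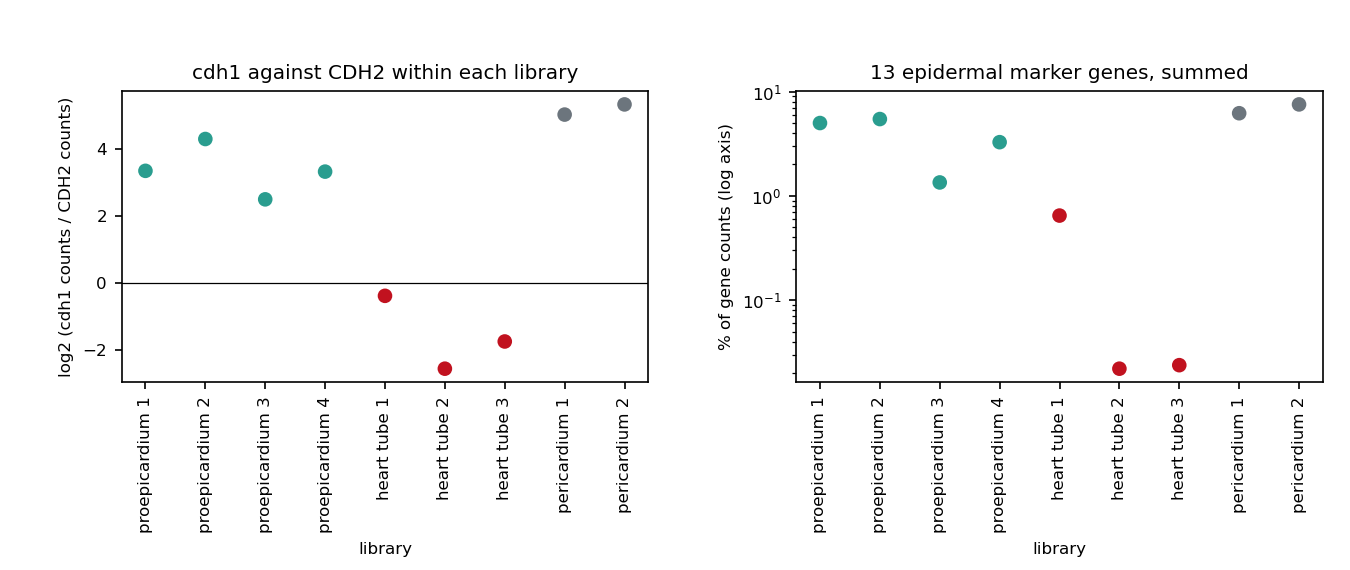
Left, log2 of cdh1 counts over CDH2 counts in each library, with a line at equal counts. Right, counts of 13 epidermal marker genes as a percentage of the gene counts of each library (log axis). The balance is above 2 in all proepicardium libraries and below 0 in all heart tube libraries, and the epidermal share is above 1% in all proepicardium and pericardium libraries and lowest in heart tube 2 and heart tube 3.

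Levels of both cadherins are set here beside marker lists of other tissues. Each list is summed over its genes, so abundant genes weigh most. In the epidermal list this is the keratin krt4, with a mean of 46068 CPM in pericardium pools. Its genes did not fall alike. In heart tube 1 to 3 krt4 had 4948, 124 and 168 CPM. TP63 had 8.46, 5.88 and 4.73 CPM there, against a pericardium mean of 279 CPM. In percent of the pericardium mean, cdh1 stood at 38.7, 76.3, 85.3 and 95.5% in proepicardium 1 to 4, where the epidermal list stood at 71.3, 72.8, 18.2 and 46%. In heart tube 1 to 3 cdh1 stood at 13.3, 8.82 and 16.4% and the epidermal list at 9.96, 0.302 and 0.388%. cdh1 was thus lower than the epidermal list in proepicardium 1, close to it in proepicardium 2 and heart tube 1, and higher in the other 4 libraries. For CDH2, the proepicardium libraries stood at 9.05, 9.2, 36 and 22.7% of the heart tube mean, whereas the heart muscle marker list (6 of 10 symbols matched) stood at 0.397, 0.354, 1.13 and 0.282% of its heart tube mean. In the pericardium CDH2 was at 6.85 and 6.19% of the heart tube mean and the heart muscle list at 0.236 and 0.0927%. An endothelial list (7 of 9 symbols matched) stood at 8.89, 11.7, 30.5 and 14.8% of its heart tube mean in the proepicardium and at 15.8 and 6.67% in pericardium pools. For the endothelial list, pericardium 1 was above proepicardium 1, 2 and 4, and pericardium 2 was below all proepicardium libraries. For CDH2, both pericardium libraries were below all proepicardium libraries. Proepicardium 3 was the highest proepicardium library for both measures. The part of endothelial cells in the CDH2 counts was not tested.

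Of the 15 cadherins tested, 5 were higher and 2 lower in proepicardium than in heart tube, with a median log2 fold change of 2.06 (0.17 over all genes). In the heart tube relative to the pericardium 2 were higher and 4 lower, with a median of -0.50 (-0.09 over all genes). Among those lower in heart tube were cdh27 and cdh26.1. Both had 0 counts in heart tube 1 and 2 and 1 count in heart tube 3. The level of cdh27 was 23.4, 13.2, 11.9 and 6.3 CPM in proepicardium pools and 21.4 and 21.2 CPM in pericardium pools, and that of cdh26.1 was 2.88, 7.38, 2.52 and 3.76 CPM in proepicardium pools and 5.17 and 10.1 CPM in pericardium pools. Against that 1 heart tube count, the proepicardium had a 670-fold ratio for cdh27 (95% counting interval 120 to 26489) and a 175-fold ratio for cdh26.1 (31 to 6935). These ratios pool the libraries, and their intervals leave out the spread between pools. The edgeR test, a separate estimate, gave log2 fold changes of 8.78 ± 0.84 for cdh27 (adjusted p = 3.64e-05) and 7.04 ± 0.97 for cdh26.1 (adjusted p = 0.000338). In the comparison of the heart tube with the pericardium both were called lower in the heart tube (adjusted p = 4.94e-05 and 0.000271).

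For cdh26.2, heart tube 1 stood apart from the other heart tube libraries. Its level was 24, 32.4, 10.7 and 31 CPM in proepicardium pools, 9.34, 0.0691 and 0.0815 CPM in heart tube pools, and 34.6 and 39.6 CPM in pericardium pools. Heart tube 1 was below every library of the other tissues and far above the other heart tube libraries, which had 1 count each. With all libraries cdh26.2 was not called (adjusted p = 0.104 against the proepicardium and 0.083 against the pericardium), and without heart tube 1 it was (adjusted p = 3.95e-05 and 5.57e-05). It was also called in both comparisons by limma-voom (adjusted p = 0.000948 and 0.000268) and by limma on the deposited normalized values (0.00333 and 0.00403). In percent of the pericardium mean, heart tube 1 had 25.2% of cdh26.2 and 9.96% of the epidermal list. Sequences were not compared, so how alike cdh26.1 and cdh26.2, or other paralogs, are was not examined. Where copies are near-identical, a table of this kind leaves uncertain how reads were shared between them.

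Among the less abundant cadherins, CDH15 (M-cadherin, known from skeletal muscle) stood at 2.14, 1.58, 3.68 and 2.1 CPM in proepicardium pools, 0.719, 0.277 and 0.408 CPM in heart tube pools and 1.5 and 1.22 CPM in pericardium pools. The proepicardium lay above both other tissues in every library, and the log2 fold change over the heart tube was 2.31 ± 0.67 (adjusted p = 0.023). That call was lost without proepicardium 3, heart tube 2 or heart tube 3 (adjusted p = 0.0662, 0.0804 and 0.0639). Of the skeletal muscle marker list (3 of 7 symbols matched), 1 gene was higher in proepicardium than in heart tube. cdh30 had 1.58, 3.15, 0.0614 and 2.65 CPM in proepicardium pools, 0.0553, 0.207 and 0.0815 CPM in heart tube pools and 2.81 and 0.608 CPM in pericardium pools. It was called in both comparisons with the heart tube (adjusted p = 0.0316 and 0.0482). Proepicardium 3 lay within the heart tube range. Leaving out a library ended the first call for proepicardium 1, 2 and 4 and each heart tube library (adjusted p = 0.0517 to 0.0926), and the second for each of the 5 heart tube and pericardium libraries (0.0633 to 0.44).

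CDH13 (T-cadherin, which lacks the cytoplasmic tail that binds catenins) was lower in proepicardium than in heart tube, with 2.65, 6.89, 6.26 and 3.65 CPM against 2.99, 22 and 53.2 CPM. The pericardium had 2.86 and 3.13 CPM. Heart tube 1 was at the level of the other tissues, so the groups overlapped. The log2 fold change was -2.42 ± 0.72 (adjusted p = 0.0271), and it was -1.37 without heart tube 3, -2.21 without proepicardium 1 and -2.31 without proepicardium 4, none of them called (adjusted p = 0.176, 0.0745 and 0.0656). The heart tube was higher than the pericardium by 3.12 ± 0.97 (adjusted p = 0.035), a call that was lost without heart tube 3 (2.06, adjusted p = 0.106), without pericardium 1 (adjusted p = 0.172) and without pericardium 2 (0.174).

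CDH11, a cadherin known from mesenchymal and bone-forming cells, did not differ between the proepicardium and the heart tube beyond the spread of the libraries. It had 33.7, 46.3, 222 and 74.8 CPM in proepicardium pools, 85.9, 84.5 and 74.4 CPM in heart tube pools and 27.3 and 19.5 CPM in pericardium pools. Proepicardium 3 was the highest library and proepicardium 1 was close to the pericardium. The log2 fold change in the proepicardium over the heart tube was 0.21 ± 0.55 (adjusted p = 0.812) and turned to -0.68 without proepicardium 3 (adjusted p = 0.174). All proepicardium libraries were above both pericardium libraries, with a difference of 2.01 ± 0.69 that did not pass the correction (unadjusted p = 0.0139, adjusted p = 0.946) and was 1.19 without proepicardium 3. The heart tube was above the pericardium by 1.8 ± 0.70, which did not pass (adjusted p = 0.0806). It passed in 4 of 13 alternatives: the DESeq2 test (adjusted p = 0.0293), limma-voom (0.00431), limma on the deposited normalized values (0.0478) and edgeR on these 2 tissues alone (0.00369). cdh6, a cadherin known from the developing kidney, varied more within the proepicardium (16.1, 11.5, 47.6 and 69.4 CPM) than in the heart tube (29.1, 20 and 22.6 CPM) or the pericardium (15.9 and 7.39 CPM), and was not called in any comparison. The other 5 tested cadherins (cdh4, CDH7, cdh16, CDH17 and cdh18a) reached at most 2.61 CPM in any library and were not called.

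**Figure D3:**
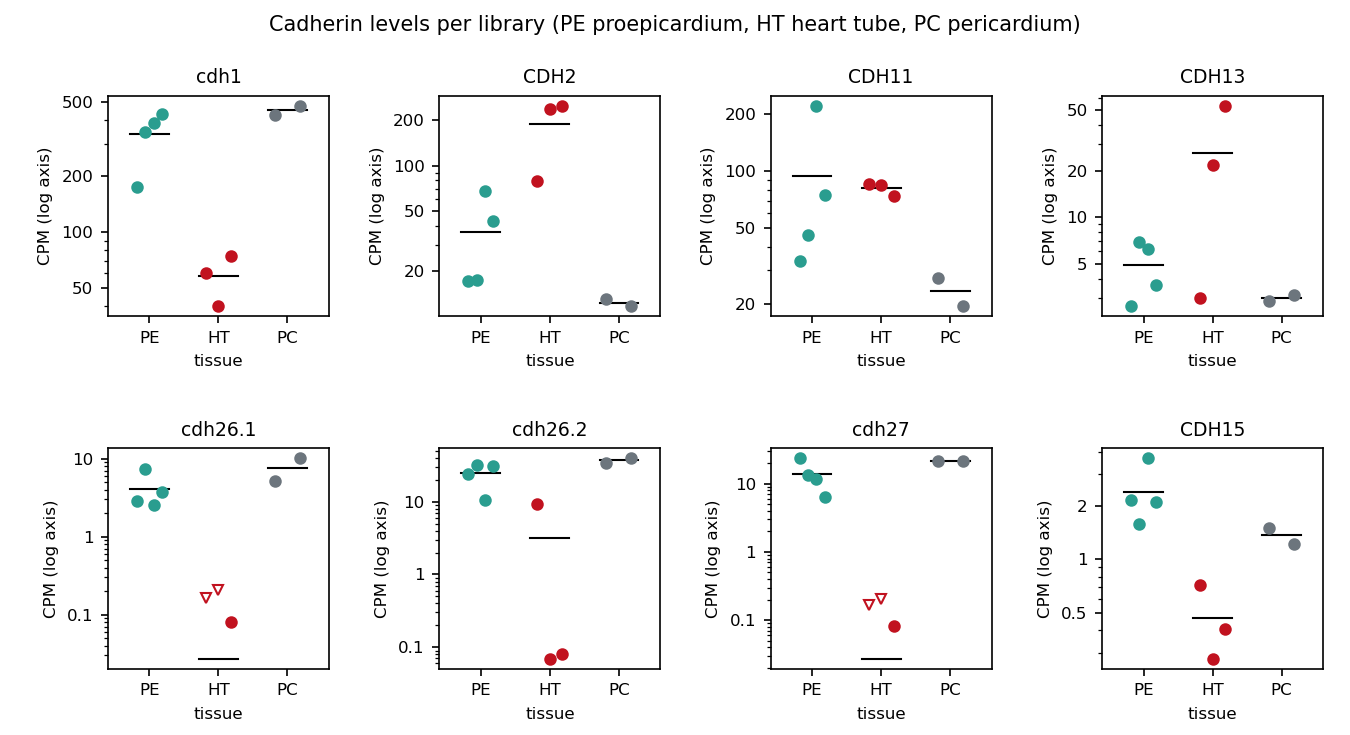
Levels of 8 cadherins in each library (points, CPM on a log axis) with the mean of each tissue (line), in the order proepicardium (PE), heart tube (HT) and pericardium (PC). Open triangles mark libraries with 0 counts, drawn at the level that 3 counts would give. The heart tube is lowest for cdh1, cdh26.1, cdh27 and CDH15 and highest for CDH2.

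Most catenins were not called. Of 11 tested, 1 was higher and none lower in proepicardium than in heart tube, with a median log2 fold change of -0.39. In the heart tube relative to the pericardium 1 was higher and 1 lower, with a median of 0.32. The gene that was higher in the proepicardium was JUP, plakoglobin, the catenin that also sits in desmosomes. It had 241, 326, 104 and 216 CPM in proepicardium pools, 32, 37.8 and 35.3 CPM in heart tube pools and 327 and 347 CPM in pericardium pools. The tissues did not overlap. The log2 fold change was 2.66 ± 0.39 in the proepicardium over the heart tube (adjusted p = 0.000471), and JUP fell by 3.26 ± 0.43 in the heart tube relative to the pericardium (adjusted p = 0.000309). Every proepicardium library was below both pericardium libraries, with a difference of -0.60 ± 0.39 (95% interval -1.46 to 0.25, adjusted p = 0.971). The heart tube libraries held 9.49, 11.2 and 10.5% of the pericardium mean of JUP. The summed epidermal list, in which krt4 weighs most, stood at 9.96, 0.302 and 0.388% in them. The part of epidermal cells in the JUP counts was not tested.

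CTNNB1, one of the 2 zebrafish beta-catenins and also the effector of Wnt signalling, went the other way. It had 135, 236, 412 and 313 CPM in proepicardium pools, 589, 568 and 380 CPM in heart tube pools and 186 and 180 CPM in pericardium pools. The heart tube was above the pericardium by 1.48 ± 0.46 on the log2 scale (adjusted p = 0.0322), and this call was lost without heart tube 1 (1.41, adjusted p = 0.0706), heart tube 2 (1.5, 0.0699), pericardium 1 (1.68, 0.125) or pericardium 2 (1.53, 0.171). The log2 fold change in the proepicardium over the heart tube was -0.90 ± 0.36, with an overlap at proepicardium 3, and did not pass (adjusted p = 0.0824). It did pass without proepicardium 3 (-1.19, adjusted p = 0.03), with no filter on low counts (0.049) and with limma-voom (0.0418). Its paralog ctnnb2 had 35.8, 32.9, 50.3 and 49.5 CPM in proepicardium pools, 30.4, 38.2 and 25.9 CPM in heart tube pools and 29.7 and 38.2 CPM in pericardium pools, with no call. There were 3.76, 7.18, 8.19 and 6.32 CTNNB1 counts per ctnnb2 count in proepicardium pools, 19.4, 14.9 and 14.7 in heart tube pools and 6.26 and 4.72 in pericardium pools. The heart tube ratios lay above all others, a comparison chosen after the values were seen.

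The core catenins that classical cadherins share were counted in every library. ctnna1 (alpha-catenin) had 63.8, 79.2, 44.5 and 80.1 CPM in proepicardium pools, 72.6, 105 and 76.5 CPM in heart tube pools and 74.8 and 81.4 CPM in pericardium pools. CTNND1 (p120-catenin, which keeps cadherins at the cell surface) had 99.6, 197, 152 and 128 CPM in proepicardium pools, 123, 91.6 and 118 CPM in heart tube pools and 107 and 120 CPM in pericardium pools. The tissues overlapped for both. The log2 fold changes in the proepicardium over the heart tube were -0.34 ± 0.29 for ctnna1 (adjusted p = 0.421) and 0.38 ± 0.30 for CTNND1 (adjusted p = 0.377). A p that misses the threshold does not show equal levels. The remaining 6 genes of this class were not called either: CTNNBIP1 (an inhibitor of beta-catenin binding to TCF factors), CTNNAL1, the neural CTNNA2, CTNND2 and ctnnd2b, and CTNNBL1, which shares the name but is known as a splicing-associated protein. Their highest level was 116 CPM, for CTNNBIP1 in heart tube 3. ctnnd2b had 0.368 to 1.44 CPM in proepicardium pools, 0.408 to 2.21 CPM in heart tube pools and 0 and 0.15 CPM in pericardium pools, with an adjusted p of 0.0533 in the heart tube against the pericardium. It passed without heart tube 3 (adjusted p = 0.0393), with the DESeq2 test (0.0128), with limma-voom (0.0127) and with limma on the deposited normalized values (0.0338).

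Of the 5 nectin and afadin genes, 3 were higher and 1 lower in proepicardium than in heart tube, and in the heart tube relative to the pericardium 1 was higher and 3 lower. AFDN, the afadin that links nectins to actin, had 34.7 to 68.5 CPM in proepicardium pools, 54.8 to 75.6 CPM in heart tube pools and 41.3 and 54.8 CPM in pericardium pools and was not called. The nectins divided by gene. nectin4a had 43.6, 53.5, 13.1 and 47.7 CPM in proepicardium pools, 4.59, 0.0691 and 0.0815 CPM in heart tube pools and 49.9 and 66.4 CPM in pericardium pools. Heart tube 1 again stood between heart tube 2 and 3 and the other tissues. The call against the proepicardium (adjusted p = 0.0165) held without heart tube 1 (adjusted p = 5.03e-05), and that against the pericardium (0.0146) was lost without pericardium 1 (0.085) or pericardium 2 (0.112). NECTIN1 had 2.88, 10.4, 2.58 and 6.3 CPM in proepicardium pools, 5 counts in all in the heart tube, and 9.38 and 8.87 CPM in pericardium pools. The ratio of pooled counts to the heart tube was 44.7 in proepicardium pools (95% counting interval 18.9 to 139). The edgeR test gave a log2 fold change of 5.55 ± 0.76 in the proepicardium over the heart tube (adjusted p = 0.000322). It also called the heart tube lower than the pericardium (adjusted p = 0.000273).

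nectin4b was at 0 counts in all heart tube libraries and at 0.0564, 0.581, 0.614 and 0.884 CPM in proepicardium pools and 0.351 and 0.956 CPM in pericardium pools. Its proepicardium mean was at least 2.59-fold higher than 3 counts per heart tube library would give, and its call (adjusted p = 0.0281) was lost without proepicardium 2 or any heart tube library (0.0542 to 0.0626). Its call against the pericardium (0.0301) was lost without any one of the 5 heart tube and pericardium libraries (0.0567 to 0.16). The median log2 fold change of the class was 4.58 in the proepicardium over the heart tube as fitted and 1.37 with this gene at its bound, and -5.14 and -1.67 in the heart tube over the pericardium. nectin3b was the exception: it had 2.31, 2.49, 5.16 and 3.98 CPM in proepicardium pools, 12.8, 8.16 and 13.4 CPM in heart tube pools and 2.46 and 2.69 CPM in pericardium pools. No heart tube library overlapped another tissue. The log2 fold change in the proepicardium over the heart tube was -1.71 ± 0.42 (adjusted p = 0.00928), and the heart tube was above the pericardium by 2.15 ± 0.54 (adjusted p = 0.0119, and 0.0904 or 0.0915 without pericardium 1 or 2).

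Desmosome genes that were called were mostly low in the heart tube. Of 11 tested, 5 were higher and 1 lower in proepicardium than in heart tube (median log2 fold change 0.83), and 1 was higher and 5 lower in heart tube than in pericardium (median -1.71). The desmosomal cadherin dsg2.1, a desmoglein, had 13.7, 42.8, 6.26 and 18.7 CPM in proepicardium pools, 0.552, 1.24 and 0.734 CPM in heart tube pools and 24.3 and 39.3 CPM in pericardium pools. The heart tube lay below all other libraries, by 4.58 ± 0.68 on the log2 scale against the proepicardium (adjusted p = 0.000599), and its level fell by 5.23 ± 0.74 relative to the pericardium (adjusted p = 0.000524). The desmocollin dsc2l behaved differently. It had 24.1, 41.4, 20 and 41.5 CPM in proepicardium pools, 71.5, 53.5 and 41.9 CPM in heart tube pools and 37.6 and 37.5 CPM in pericardium pools. Every heart tube library was above every other library, by a small margin, and neither difference passed: -0.81 ± 0.33 for the proepicardium against the heart tube (adjusted p = 0.0866) and 0.57 for the heart tube against the pericardium (adjusted p = 0.342).

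Plakophilins, the armadillo proteins of the desmosomal plaque, were split between tissues. pkp3a had 95.7, 119, 20.9 and 62.5 CPM in proepicardium pools, 4.26, 1.38 and 0.897 CPM in heart tube pools and 116 and 132 CPM in pericardium pools. PKP1, known from stratified epithelia, had 44.3, 76.8, 14.5 and 65.4 CPM in proepicardium pools, 4.48, 0.484 and 0.815 CPM in heart tube pools and 77.1 and 60.1 CPM in pericardium pools. Both were far lower in the heart tube without overlap. The log2 fold changes in the proepicardium over the heart tube were 5.07 ± 0.73 for pkp3a (adjusted p = 0.000586) and 4.67 ± 0.84 for PKP1 (adjusted p = 0.00244), and without heart tube 1 they were 6.0 and 6.26. In the heart tube over the pericardium they were -5.80 ± 0.79 for pkp3a (adjusted p = 0.000509) and -5.12 ± 0.90 for PKP1 (adjusted p = 0.00247). PKP3, listed as a second plakophilin 3 gene, showed the reverse, with 5.64, 4.9, 9.4 and 10.3 CPM in proepicardium pools, 60.3, 89.7 and 50.9 CPM in heart tube pools and 6.62 and 6.26 CPM in pericardium pools. It was lower in proepicardium than in heart tube (log2 fold change -3.15 ± 0.35, adjusted p = 8.6e-05, an 8.88-fold difference) and higher in heart tube than in pericardium by 3.38 ± 0.46 (adjusted p = 0.000409).

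Counts of pkp3a per count of PKP3 were 17, 24.3, 2.23 and 6.09 in proepicardium pools, 0.0706, 0.0154 and 0.0176 in heart tube pools and 17.5 and 21.1 in pericardium pools, a ratio chosen after the values were seen. PKP3 in proepicardium 1 to 4 was at 8.42, 7.31, 14 and 15.3% of the heart tube mean. The heart muscle list was at 0.282 to 1.13% there, and the endothelial list at 8.89, 11.7, 30.5 and 14.8%. The part of heart muscle or endothelial cells in the PKP3 counts was not tested. pkp2, the main plakophilin of the mammalian heart, was low in all tissues (2.71, 2.41, 1.54 and 4.42 CPM in proepicardium pools, 1.66, 3.6 and 2.36 CPM in heart tube pools, 2.41 and 1.39 CPM in pericardium pools) and was not called. PKP4 and pkp1a were not called.

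Of the desmoplakin genes, which anchor intermediate filaments to the plaque, only ENSDARG00000022309 was called. It had 61, 111, 50 and 98.3 CPM in proepicardium pools, 31.1, 21.6 and 12.3 CPM in heart tube pools and 93.9 and 117 CPM in pericardium pools. The heart tube lay below all other libraries, with a log2 fold change of 1.89 ± 0.40 in the proepicardium over it (adjusted p = 0.00473), and its level fell by 2.28 ± 0.45 relative to the pericardium (adjusted p = 0.00341). The other desmoplakin gene, ENSDARG00000076673, had 14.7, 38, 9.09 and 12.7 CPM in proepicardium pools, 20.1, 21.5 and 10.1 CPM in heart tube pools and 29.3 and 38 CPM in pericardium pools. Proepicardium and heart tube overlapped for it (0.11 ± 0.47, adjusted p = 0.886), and the difference between the heart tube and the pericardium was -0.96 ± 0.55 (adjusted p = 0.232). Whether the 2 genes differ in their response was not tested. PERP, a tetraspan membrane protein of desmosomes, had 322, 361, 101 and 275 CPM in proepicardium pools, 160, 70.9 and 90.8 CPM in heart tube pools and 325 and 378 CPM in pericardium pools. It was called higher in the proepicardium with overlap at proepicardium 3 (1.30 ± 0.44, adjusted p = 0.0433). The call was lost without proepicardium 1, 2 or 4 or heart tube 2 or 3 (1.02 to 1.23, adjusted p = 0.0806 to 0.173). In the heart tube relative to the pericardium PERP was called lower (-1.71 ± 0.50, adjusted p = 0.0251), a call lost without heart tube 2 or 3 or either pericardium library (-1.38 to -1.63, adjusted p = 0.0834 to 0.147).

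**Figure D4:**
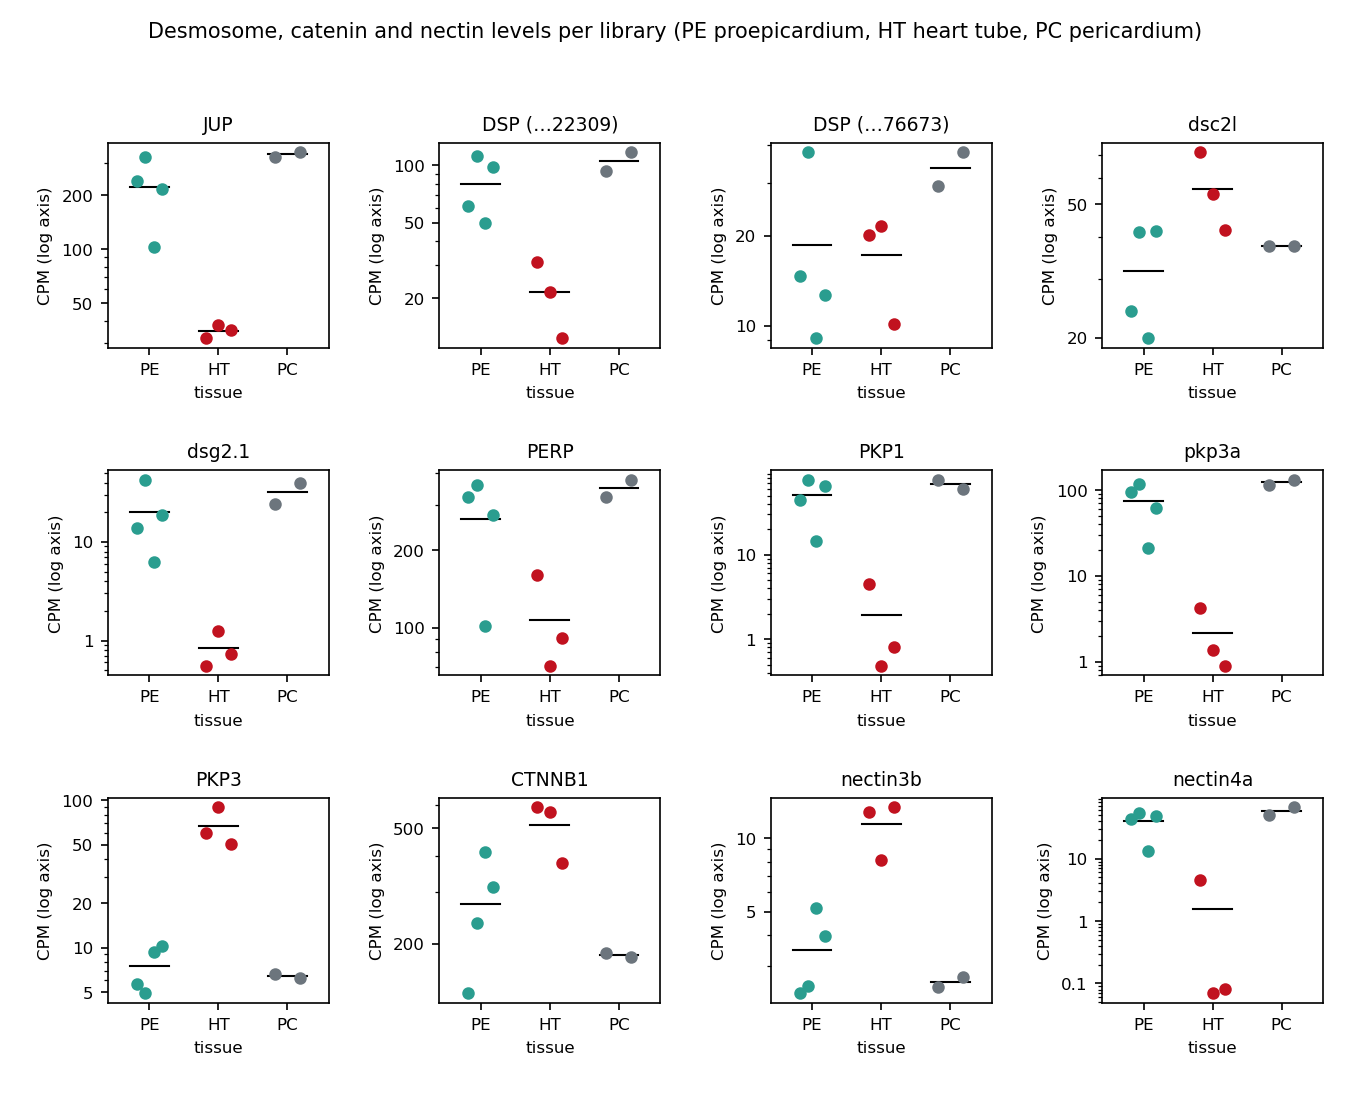
Levels of JUP, 8 desmosome genes, CTNNB1, nectin3b and nectin4a in each library (points, CPM on a log axis) with the mean of each tissue (line), in the order proepicardium (PE), heart tube (HT) and pericardium (PC). JUP, dsg2.1, PKP1, pkp3a and nectin4a are lowest in the heart tube, PKP3 and nectin3b are highest there, and proepicardium 3 (the third point) is the lowest proepicardium library for most desmosome genes.

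The junction genes that were low in the heart tube were not low to the same degree. The summed epidermal list set beside them is weighted most by krt4, and its own genes did not fall alike either. In heart tube 2 and heart tube 3, where the epidermal list stood at 0.302 and 0.388% of its pericardium mean, nectin4a was at 0.119 and 0.14%, cdh26.2 at 0.187 and 0.22%, and PKP1 at 0.706 and 1.19%. In the same libraries dsg2.1 was at 3.92 and 2.31% and cdh1 at 8.82 and 16.4%. JUP was at 11.2 and 10.5%, the called desmoplakin at 20.4 and 11.7%, PERP at 20.2 and 25.9% and the other desmoplakin at 63.9 and 30.1% of the pericardium mean. At the upper end, dsc2l was at 143 and 112%, PKP3 at 1390 and 790% and CDH2 at 1930 and 2030%. Heart tube 1 had 9.96% of the epidermal list. Among genes called lower than in pericardium, it was the highest heart tube library for PERP (45.6%), the called desmoplakin (29.5%) and nectin4a (7.89%). So it was for PKP1 (6.53%), pkp3a (3.44%) and NECTIN1 (1.82%), the last with only 3, 1 and 1 counts in heart tube 1 to 3. It was also the highest for cdh26.2 (25.2%), which the main fit did not call with all libraries. For CDH15, called lower only against the proepicardium, heart tube 1 was also the highest. How often heart tube 1 was the highest over all genes was not counted. It was not the highest for the other desmoplakin (59.8%), cdh1 (13.3%), JUP (9.49%) and dsg2.1 (1.74%), nor for cdh26.1, cdh27 and cdh30, which had 1 to 5 heart tube counts in all. nectin4b, also called lower, had 0 counts in every heart tube library. Without heart tube 1, cdh1, JUP, dsg2.1, pkp3a, PKP1 and the desmoplakin gene ENSDARG00000022309 were called in both comparisons with the heart tube as before (adjusted p = 0.000179 to 0.00374). The part of epidermal cells in the junction gene levels was not tested.

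**Figure D5:**
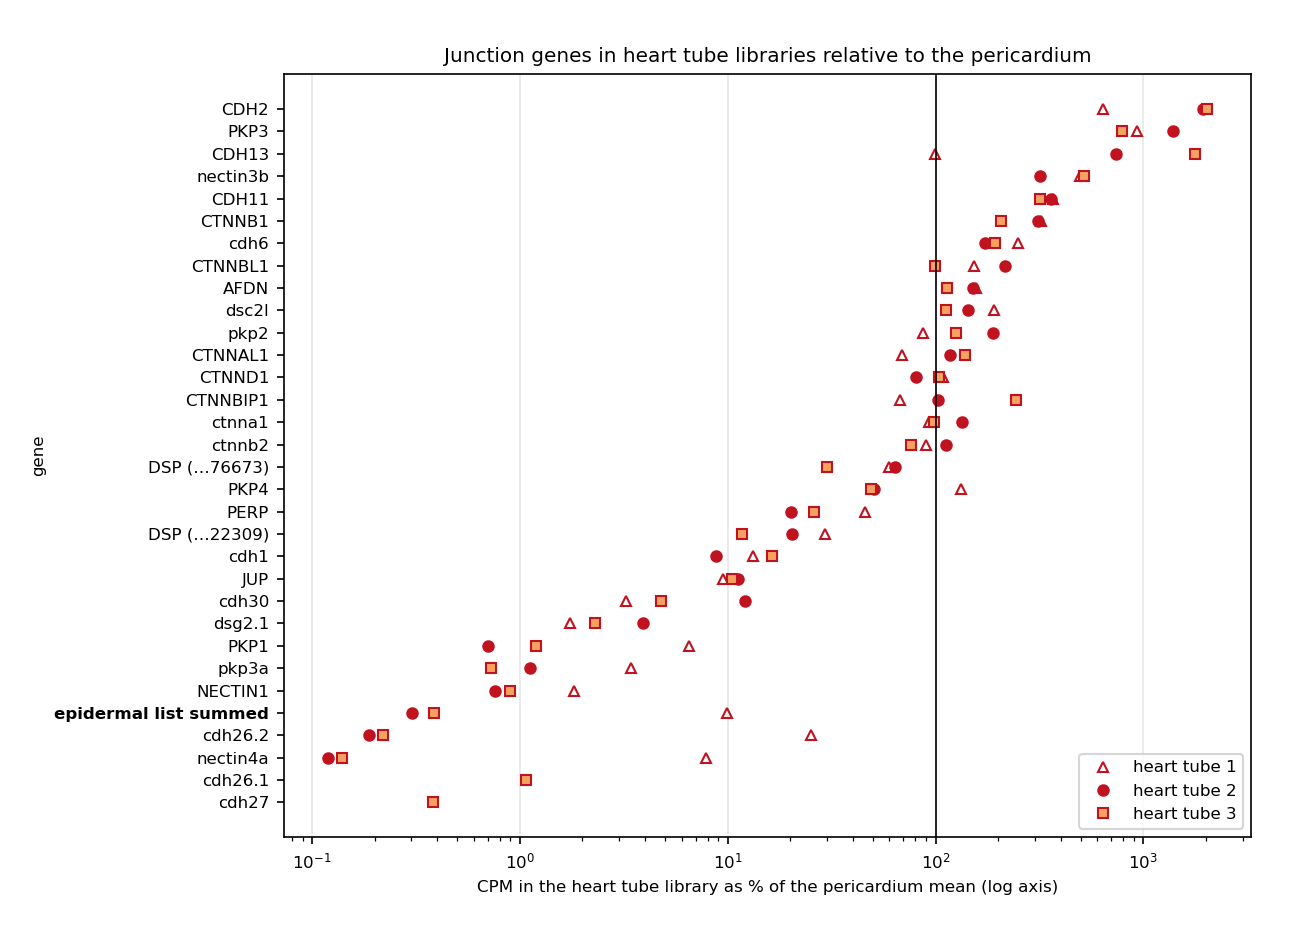
CPM of each heart tube library as a percentage of the pericardium mean of the same gene (log axis, line at equality), for genes with enough pericardium counts, ordered by the median, with the summed epidermal list in bold. Libraries with 0 counts (cdh26.1 and cdh27 in heart tube 1 and 2) are not drawn. The genes spread from nectin4a, near 0.1% in heart tube 2 and 3, to CDH2, at 1930% and 2030% there.

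Between proepicardium and pericardium, where no gene was called, the genes higher in every proepicardium library were CDH2, CDH11, CDH15 and ctnnd2b. The genes lower in every proepicardium library were JUP and cdh26.2. Median log2 fold changes in the proepicardium over the pericardium were 0.70 for cadherins, 0.20 for catenins, -0.41 for desmosome genes and -0.29 for nectins and afadin, against -0.02 over all genes. The 95% intervals were wide: for cdh1 the difference of -0.44 had an interval of -1.28 to 0.41, and for pkp3a -0.73 had one of -2.14 to 0.68.

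Among the proepicardium libraries, replicate 3 was the lowest of the 4 for 9 of 11 desmosome genes and for 18 of the 42 tested genes, where 27.3% of all genes had their lowest value in it. The summed desmosome genes stood at 590, 807, 240 and 597 CPM in proepicardium 1 to 4, 364, 268 and 215 CPM in heart tube pools and 720 and 818 CPM in pericardium pools. PERP weighed most in these sums (322, 361, 101 and 275 CPM in proepicardium 1 to 4), except in heart tube 2, where PKP3 did. Proepicardium 3 also had the lowest epidermal share of the proepicardium (1.35%). Its heart muscle (0.0546%), epicardial and mesothelial (0.0279%) and endothelial (0.0178%) shares were the highest of the proepicardium. So were its red blood cell (0.244%), skeletal muscle (0.0728%) and liver (0.0331%) shares. The neuronal and cartilage shares were highest in proepicardium 4. CDH2 and CDH11 were highest in proepicardium 3 among these libraries, and its cdh1 level was the second highest. The part of any cell type in these differences was not tested. Without proepicardium 3 the log2 fold changes over the heart tube were 4.86 for dsg2.1, 5.32 for pkp3a and 2.87 for JUP, each still called (adjusted p = 8.11e-05, 8.21e-05 and 5.47e-05).

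Partner genes of the junctions that are outside the chosen set gave mixed counts. Over all genes tested, 16.8% were higher and 12.7% lower in proepicardium than in heart tube. In heart tube relative to pericardium, 11% were higher and 16.1% lower. Of 10 tested adherens junction partners (13 of 25 symbols matched), 2 were higher and 3 lower in proepicardium than in heart tube, and 2 higher and 4 lower in heart tube than in pericardium. tjp1b, the scaffold protein ZO-1, had 39.5, 41.6, 49.8 and 65.7 CPM in proepicardium pools, 286, 225 and 200 CPM in heart tube pools and 42.3 and 40.8 CPM in pericardium pools. Every heart tube library was above every other library (-2.27 ± 0.29, adjusted p = 0.000195, for the proepicardium against the heart tube). ENAH, an actin regulator of the Ena/VASP family, was lower in the proepicardium (-1.70 ± 0.32, adjusted p = 0.00212), and actn4, an actin crosslinker, was higher (1.73 ± 0.41, adjusted p = 0.00817). Of 11 tested desmosome and filament partners (11 of 16 symbols matched, 1 of them to 2 rows), 3 were higher and 3 lower in proepicardium than in heart tube, and 2 higher and 5 lower in heart tube than in pericardium. The envoplakin gene evpla, a plakin of epidermal desmosomes, was higher in the proepicardium (5.22 ± 0.85, adjusted p = 0.00137). The muscle genes xirp1 and NEXN, which sit at intercalated and Z discs, were lower in the proepicardium (-5.50 ± 0.55, adjusted p = 4.68e-05, and -3.86 ± 0.57, adjusted p = 0.000585). No gene of either list was called between the proepicardium and the pericardium, where no gene at all was called.

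A list of transcription factors known as repressors of E-cadherin or as drivers of epithelial junction genes (20 of 23 symbols matched, 19 tested) had 11 genes higher and none lower in proepicardium than in heart tube, and 3 higher and 8 lower in heart tube than in pericardium. Over all genes tested, 16.8% were higher and 12.7% lower in the first comparison, and 11% higher and 16.1% lower in the second. Epithelial factors led the list. TP63, the master factor of epidermal basal cells and itself one of the epidermal markers above, had 233, 230, 118 and 141 CPM in proepicardium pools, 8.46, 5.88 and 4.73 CPM in heart tube pools and 316 and 243 CPM in pericardium pools (4.82 ± 0.42, adjusted p = 2.05e-05). ELF3, grhl2a and ovol1a, which promote epithelial identity, were also higher in the proepicardium (adjusted p = 7.86e-05, 8.67e-05 and 0.00147). The list's repressors of E-cadherin are named here after their values were seen. Of these, twist1a, twist2 and twist3 were the called ones between proepicardium and heart tube, all higher in proepicardium, and twist1b, zeb2a and snai1b the called ones between heart tube and pericardium, all higher in heart tube. zeb2a had 7.5, 9.71, 23 and 18.7 CPM in proepicardium pools, 28.6, 60.2 and 25 CPM in heart tube pools and 7.32 and 2.61 CPM in pericardium pools, so each heart tube library was above every other library, and the difference from the proepicardium did not pass (adjusted p = 0.0524).

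Markers of further cell types were counted the same way. For comparison, 16.8% of all genes tested were higher and 12.7% lower in proepicardium than in heart tube. In heart tube relative to pericardium, 11% were higher and 16.1% lower. The heart muscle list took 0.0131 to 0.0546% of counts in proepicardium pools, 3.72 to 4.68% in heart tube pools and 0.00391 to 0.0115% in pericardium pools, and 7 of 7 tested genes were lower in proepicardium than in heart tube and higher in heart tube than in pericardium. Of 6 epicardial and mesothelial genes (6 of 7 symbols matched), wt1b was higher and HAND2 lower in proepicardium than in heart tube, and 2 were higher in heart tube than in pericardium. wt1b was near the floor, with 0.773 to 2.58 CPM in proepicardium pools and 0 to 0.0691 CPM in heart tube pools. The others were not called between these tissues. Mean CPM in proepicardium and heart tube were 4.68 and 2.1 for TCF21 and 1.26 and 1.32 for TBX18. For jam2b they were 20.3 and 4.61, and for ALDH1A2 18.8 and 53. The list took 0.00643 to 0.0279% of counts in proepicardium pools, 0.0511 to 0.0753% in heart tube pools and 0.0049 to 0.00941% in pericardium pools. HAND2 weighs most in these shares. Of 7 endothelial genes 6 were lower in the proepicardium and 6 higher in heart tube than in pericardium. Red blood cell genes (4 of 7 matched) gave no call between the proepicardium and the heart tube and 3 higher in heart tube than in pericardium. Neuronal genes (4 of 6 matched) gave 1 higher in proepicardium than in heart tube, and 2 higher and 1 lower in heart tube than in pericardium. Liver genes (5 of 5 matched, 3 tested) gave 2 higher in the proepicardium and 1 higher in heart tube than in pericardium, and cartilage genes (2 of 5 matched, 1 tested) gave none. No marker of any list was called between the proepicardium and the pericardium, where no gene at all was called.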

How the data were processed

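Per the labels' protocols, pools of dissected organs were amplified with a low-input cDNA kit and sequenced. The submitters' processing notes name CASAVA 1.8, fastp, STAR, featureCounts and DESeq2 and the build GRCz11 (danRer11), with no versions beyond that of CASAVA; strand use in counting is not given in the sources used here. The deposited files hold raw counts per gene for each library and a table of values normalized by the authors on a log2 scale (the scale was read from the values). All 193374 of these lay within 1e-06 of the DESeq2 regularized log computed from the counts. Symbols came from a gene name table that matched 29201 of 32520 gene IDs. Rows of reporter constructs (16, at most 0.0309% of counts) were left out of library sizes.

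Tests on the counts used the quasi-likelihood method of edgeR 4.0.16 (R 4.3.3), fitted with robust estimates on all 9 libraries, tissue as the only factor, TMM factors, filterByExpr (minimum count 10, minimum total 15) and Benjamini-Hochberg adjustment over 17003 genes at 0.05. SE were derived from the fitted log2 fold change and the F statistic of its test, and the 95% intervals, given per gene, were built from them. For genes with a few counts in a tissue these SE are approximate. The cadherin balance was tested by an exact permutation test (scipy 1.17.1), with 0.5 added to each count. A library's floor of 3 counts equals 0.15 to 0.331 CPM; counting intervals of ratios are 95% and cover counting error only, since reads of amplified cDNA are not independent molecules. Alternatives were DESeq2 1.42.0 (size factors and test), limma 3.58.1 (voom with quality weights, and the deposited normalized values), other filters, a replicate block, fits on 2 tissues alone and leaving out each library. Only the main edgeR fit was tested on simulated data, not the alternatives.

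The genes and lists were chosen with earlier results of these data known. Genes given in every library were a fixed set of core junction genes and, for each comparison and direction, the 5 called genes with the smallest p; further genes are described with their class. From the partner and transcription factor lists at most 4 called genes per list and comparison were named by smallest p; the E-cadherin repressors of the second list were named after their values were seen. Coordinates, transcript lengths and sequences were not used here, so levels are compared within a gene only.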

Additional observations from a re-analysis of the deposited data

How the results depend on the processing

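The 3 comparisons were repeated with other normalizations, filters, tools and subsets of libraries. The number of these genes called between proepicardium and heart tube was 18 as reported, 13 to 18 under the other settings and 13 to 18 without 1 library. Between heart tube and pericardium it was 18 as reported, 13 to 20 under the other settings, and 11 to 16 without 1 library, where each pericardium library left out gave 11. Between proepicardium and pericardium it was 0 under every setting run. Over all genes, that comparison gave 9 calls with no filter, 102 with the DESeq2 test and 7 with limma-voom. Heart tube against pericardium gave 4613 calls as reported, 6926 with limma-voom, and 2231 to 4428 without 1 library (2315 without pericardium 1, 2231 without pericardium 2). The labels number the replicates. Deviations of same-numbered libraries from their tissue means correlated at -0.0179 to 0.129, and the main fit did not treat them as paired. Differently numbered libraries were not correlated for comparison, so whether same-numbered libraries share a batch was not tested. With a replicate block, 13 genes were called in each comparison with heart tube and 0 between proepicardium and pericardium.

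Calls between proepicardium and heart tube that other settings ended were CDH13, CDH15 and nectin4a with no filter, PERP at a mean count of at least 50, nectin4b and cdh30 with limma-voom, CDH13, PERP and cdh30 on the deposited normalized values, PERP on 2 tissues alone, and CDH13, CDH15, PERP, nectin4b and cdh30 with the replicate block. Between heart tube and pericardium they were CDH13 and nectin4a with no filter and on 2 tissues alone, cdh30 with limma-voom, CDH13 and cdh30 on the deposited normalized values, and CDH13, CTNNB1, PERP, nectin4b and cdh30 with the replicate block.

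The balance of cdh1 and CDH2 kept its direction in each alternative. Direction changed only in differences that were not called, and the cause was not tested. For heart tube over pericardium, CTNND1 had a log2 fold change of 0.00065 with DESeq2 size factors, 0.12 with no filter, 0.089 at a mean count of at least 50, 0.00075 with the DESeq2 test, 0.0064 on 2 tissues alone and -0.073 to 0.18 without 1 library. In the same comparison ctnnb2 had 0.039 with no filter, 0.0092 at a mean count of at least 50 and -0.18 to 0.15 without 1 library. For proepicardium over heart tube, the desmoplakin gene ENSDARG00000076673 had -0.0035 with no filter, -0.013 with limma-voom, -0.028 on the deposited normalized values and -0.57 to 0.29 without 1 library. pkp2 had -0.0051 with limma-voom, -0.22 with the replicate block and -0.22 to 0.42 without 1 library. CDH11 had -0.22 with limma-voom, -0.14 on the deposited normalized values, -0.25 with the replicate block and -0.68 to 0.49 without 1 library, and cdh6 had -0.21 with the replicate block. For proepicardium over pericardium, cdh30 had -0.34 with limma-voom, -0.11 on the deposited normalized values and -0.57 to 1.66 without 1 library, PKP3 had -0.032 with the replicate block and nectin4b had -0.76 to 0.63 without 1 library.

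With 2 pericardium libraries and a common biological coefficient of variation of 0.528, small differences were not detectable. Genes with a few counts in heart tube (cdh26.1, cdh27, NECTIN1, nectin4b, cdh30) are limited by depth.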
